A study of Mus musculus with 4 samples.

Results

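Forming bone was described here in 60 spots of a mouse embryo section at E16.5 (embryonic stage in days), out of 3588 spots kept in that section and 7435 kept in the whole study. Visium slides carry barcoded spots that capture the RNA of the tissue above them, so a spot is a small region with several cells, and levels are counts of unique molecular identifiers (UMIs). Spots over tissue with at least 500 UMIs were ranked on a score, the mean of log(1 + UMIs per 10000) over 4 bone genes, Ibsp, Sp7, Bglap and Dmp1, and the 60 highest were chosen by that score. Ibsp and Dmp1 encode acidic matrix proteins that bind mineral, Bglap encodes osteocalcin, and Sp7 encodes a transcription factor that osteoblasts require. These genes chose the spots and are not findings. The study compared untreated wild-type mouse tissue in 4 sections cut at 8 µm from fresh frozen blocks: 1 embryo section at E13.5, 1 at E16.5, both from wild-type females carrying the litters, and 2 of esophagus dissected from newborns (P0). Both embryo samples are titled esophagus, while their tissue label is mouse embryo. The animals behind the sections are not named in the labels. With 1 section at E16.5 there is no replicate check, so no test was made and every interval below covers counting error alone.

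Bone forms where osteoblasts secrete a matrix of type I collagen, hold phosphate and calcium in it as mineral, and become enclosed in it as osteocytes. Most of the skeleton is laid down on a cartilage model, whose cells enlarge, make type X collagen and are replaced at the cartilage edge, while flat bones form directly in mesenchyme. Osteoclasts, large cells of the macrophage lineage, dissolve mineral with acid and digest the collagen, and in the embryo they work beside the osteoblasts at the same surfaces.

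The highest spot scored 2.67, the 30th 1.83, the 59th and 60th 1.48 and 1.47, and the first spots outside the limit 1.44 and 1.42, so the limit cuts through a continuous range. All 4 score genes were detected in 47 of the 60 spots, 3 in 11 and 2 in 2. The 60 spots held 1213025 UMIs, from 2290 to 42286 per spot with a median of 19841, against a median of 26986.5 in the other 3528 kept spots. 52 of the 60 lay below that median. Mitochondrial genes held 1.58% of UMIs in the forming bone spots and 4.37% in the others. In sums over spots, fewer cells of a type and less RNA per cell cannot be told apart. The E13.5 and E16.5 files share 2542 barcodes, and the P0 sections share 350 and 240 with E16.5, because a barcode names a position on the slide and not a cell.

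The forming bone spots were clustered in the section, in 14 connected groups on the hexagonal grid, in which each spot has 6 nearest positions. Of the 60 spots, 56 touched another one and 4 stood alone. Groups of at least 5 spots were named by size: group A with 15 spots, group B with 10, group C with 9 and group D with 7. Groups A, B and D lay in the same narrow band, at grid columns 21 to 25, with group B at rows 44 to 50, group A at rows 52 to 61 and group D at rows 70 to 73. Group C lay at the other edge of the section, at columns 111 to 118 and rows 5 to 9. The remaining 19 spots sat in smaller groups, and 15 of all 60 lay on the high-column side. The files do not name the bones, so groups are given by grid position.

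**Figure D1:**
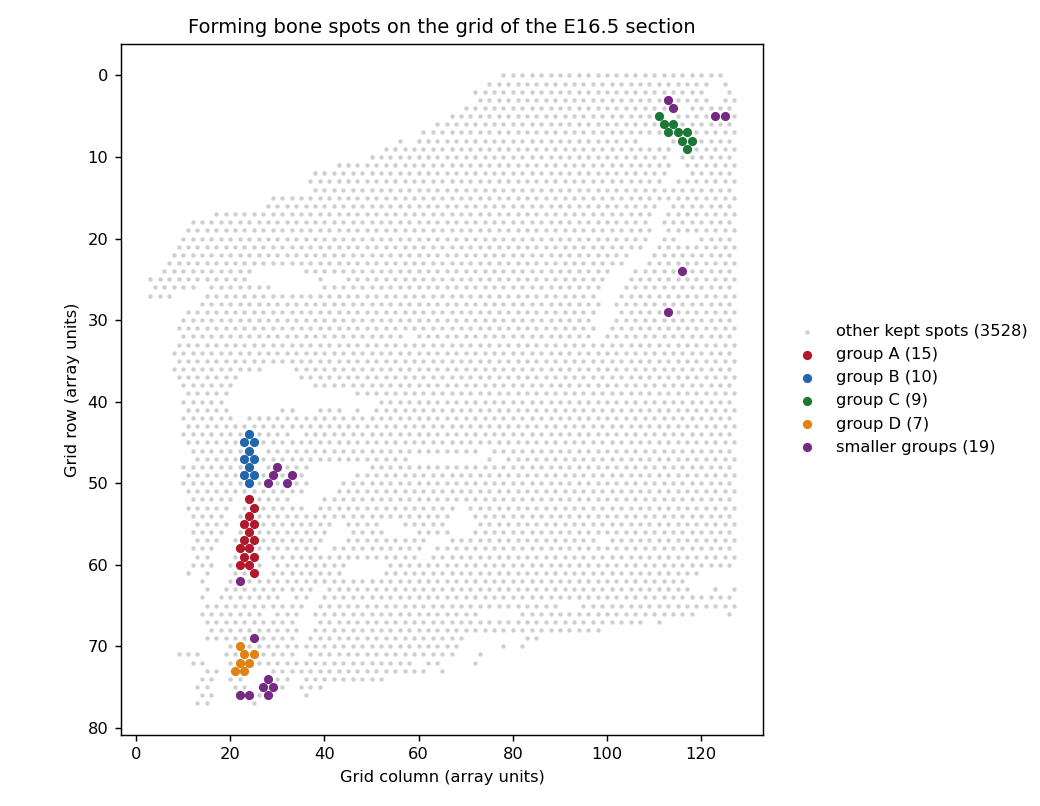
Grid positions (row and column, in array units) of all 3588 kept spots of the E16.5 section, with the 60 forming bone spots coloured by connected group. Groups A, B and D share columns 21 to 25, while group C lies at columns 111 to 118.

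Levels are given as UMIs per 1000000 UMIs (CPM) summed over a set of spots, with exact Poisson 95% intervals in brackets. A gene was counted as higher or lower when the ratio of CPM, after adding 1 CPM to both sides, passed 2-fold, and it was tested for this when it had at least 100 UMIs over the kept spots. Of 15406 such genes, with the score genes left out, 983 (6.38%) were at least 2-fold higher in forming bone spots than in the other kept spots and 3353 (21.8%) at least 2-fold lower. The median log2 ratio over all of them was -0.19. Counts over gene lists below stand beside these shares, and log2 ratios compare forming bone with all other kept spots unless another set is named. The 25 genes with the largest ratios included, in order, Spp1, Bglap2, Mmp13, Mmp9, Ifitm5, Acp5, Panx3, Podnl1, Atp6v0d2, Vdr, Sgms2, Alpl, Slc13a5, Slc9b2, Ocstamp, Ctsk, Oscar, Phex, Slc37a2, Dkk1, Col22a1, Dcstamp, Kazald1 and Col10a1. All 25 were at least 2-fold higher in each of groups A, B, C and D taken alone, where 7.41%, 10.3%, 13.3% and 12.8% of all tested genes were. The genes were ranked on these spots, so their ratios describe the spots and are not a test.

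Matrix proteins of bone were higher in forming bone spots: 11 of the 13 tested genes on the list passed 2-fold, with a median log2 ratio of 3.29. Spp1 encodes osteopontin, an acidic phosphoprotein made by osteoblasts and osteoclasts and bound to mineral. It reached 10538 CPM [10356 to 10722] in forming bone and 87.6 CPM [85.8 to 89.4] elsewhere, a log2 ratio of 6.89. Per spot, Spp1 ran from 6.07 to 250.5 UMIs per 10000 with a median of 98.8, and 50 of the 60 spots lay above the 99th percentile of the other spots, so nearly all forming bone spots were high although their range was wide. The other spots reached 177.0 at their highest, and 12 forming bone spots lay above that. Spp1 lies at chr5:104435111-104441053 (GRCm38.p6) in a row of acidic matrix genes, with Dspp, Dmp1, Ibsp and Mepe, between Sparcl1 and Pkd2. Ibsp and Dmp1 are genes of the score. Mepe, a matrix protein of late osteoblasts and osteocytes, stood at 14.8 CPM against 0.134 on 18 and 14 UMIs, too few for the count of tested genes. Dspp, which encodes dentin protein, had 0 and 1 UMIs, and the flanking genes Sparcl1 and Pkd2 had log2 ratios of -1.66 and 0.40.

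Ifitm5, a small membrane protein of osteoblasts in which mutations cause brittle bones, stood at 543 CPM [503 to 586] against 6.97. It ranged from 0 to 17.2 UMIs per 10000 with a median of 4.94, and 46 of the 60 spots exceeded the 99th percentile of the others. Sparc, which encodes osteonectin, a collagen-binding protein found in many connective tissues, stood at 13549 CPM [13342 to 13758] against 1740. Its lowest forming bone spot held 45.4 UMIs per 10000 and the other spots had a median of 15.2, so every forming bone spot lay above that median. Kazald1 (log2 ratio 4.56), a secreted IGF-binding-like protein of bone, the small proteoglycan Omd (4.36), and Tnn (3.29), the matrix protein tenascin-W, were also higher. Postn and Ogn, matrix proteins of periosteum and other fibrous tissue, were the exceptions, at log2 ratios of -0.08 and 0.01.

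Osteocalcin has neighbouring near-identical genes, and counting may split reads among them, so each copy's level is uncertain. Bglap2 stood at 186 CPM [163 to 212] against 1.21 (log2 ratio 6.4) and was found in 41 of the 60 spots, from 0 to 11.3 UMIs per 10000 with a median of 1.28. Bglap3 stood at 37.1 CPM [27.1 to 49.6] against 1.2. The spots of group A were the highest for Bglap2, at 378 CPM, against 127 in group B, 175 in group C and 44.3 in group D. In the P0 esophagus sections Bglap3 had 290 and 254 UMIs (28.3 and 34.5 CPM) and Bglap2 had 353 and 165 (34.4 and 22.4 CPM). The score gene Bglap had 3 UMIs in each section. Bglap helped choose the forming bone spots, so its share among the copies there is not compared with P0. The neighbouring gene Pmf1 was at 41.8 and 42.8 CPM there and at 49.5 CPM in forming bone.

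The sequences before the starts of Spp1 and Mmp13, among the genes with the largest ratios, and of 2 osteocalcin copies are shown because RUNX2, the factor that osteoblasts require, binds the letters ACCACA. Each line gives 250 bases before the RefSeq start (GRCm38.p6), 5′ to 3′ on the gene's strand, with ACCACA or its reverse complement TGTGGT in capitals. The windows are chr5:104434861-104435110 (plus strand) for Spp1, chr9:7272264-7272513 (plus) for Mmp13, chr3:88384467-88384716 (minus) for Bglap and chr3:88372742-88372991 (minus) for Bglap3.
Spp1: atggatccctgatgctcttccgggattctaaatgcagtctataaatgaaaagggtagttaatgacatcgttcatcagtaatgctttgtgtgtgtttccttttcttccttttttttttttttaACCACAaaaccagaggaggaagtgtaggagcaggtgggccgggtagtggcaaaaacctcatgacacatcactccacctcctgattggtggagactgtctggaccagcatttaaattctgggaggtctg
Mmp13: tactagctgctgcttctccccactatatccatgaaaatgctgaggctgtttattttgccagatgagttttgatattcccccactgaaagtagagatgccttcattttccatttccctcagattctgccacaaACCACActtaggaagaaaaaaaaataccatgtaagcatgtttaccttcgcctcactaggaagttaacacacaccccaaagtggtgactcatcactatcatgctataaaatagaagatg
Bglap: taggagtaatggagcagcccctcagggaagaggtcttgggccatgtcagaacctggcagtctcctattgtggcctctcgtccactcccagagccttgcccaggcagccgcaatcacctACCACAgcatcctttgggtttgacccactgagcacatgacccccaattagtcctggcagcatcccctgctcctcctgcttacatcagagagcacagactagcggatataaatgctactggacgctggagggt
Bglap3: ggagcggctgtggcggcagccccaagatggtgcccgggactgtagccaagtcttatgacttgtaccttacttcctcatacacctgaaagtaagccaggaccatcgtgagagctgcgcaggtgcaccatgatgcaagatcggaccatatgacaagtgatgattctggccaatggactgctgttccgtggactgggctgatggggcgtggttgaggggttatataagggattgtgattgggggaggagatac
The match began 128 bases before the start in Spp1, 118 in Mmp13 and 132 in Bglap, and Bglap3 had none in this window. Searched on both strands, with overlapping matches allowed, the letters occurred before 15.9% of 27025 genes with a window, and before 4 of the 16 genes with a window among the 25 named above (25%). These letters are short and common, and a match is a description of the sequence only.

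Collagens of bone and the enzymes that fold them were higher together. Of 14 fibrillar and bone collagens, 10 passed 2-fold, with a median log2 ratio of 2.55. Col1a1 and Col1a2 encode the chains of type I collagen, the main protein of bone matrix. Col1a1 stood at 31126 CPM [30813 to 31442] against 2582, and Col1a2 at 28025 [27728 to 28324] against 2618. Per spot, Col1a1 ran from 111 to 605 UMIs per 10000 with a median of 269, all 60 spots lay above the median of the others (18.7), and 43 lay above their 99th percentile (230.5). Col11a1 and Col11a2, which encode chains of a minor fibrillar collagen of cartilage and bone, had log2 ratios of 3.18 and 3.80, and Col22a1, a collagen known from tissue junctions, had 4.69. Col24a1, a minor fibrillar collagen of bone, stood at 57.7 CPM against 6.18. Col3a1, the collagen of loose connective tissue and vessels, was not higher, at 2169 CPM against 2724, and neither were the 3 type VI collagens on the list, with log2 ratios of 0.04 to 0.33.

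Among 21 genes of collagen folding and processing, 16 passed 2-fold upwards and 1 downwards, with a median log2 ratio of 1.74. Serpinh1 encodes the collagen chaperone HSP47 and stood at 3219 CPM [3119 to 3322] against 748. Fkbp10, a prolyl isomerase of collagen folding, stood at 784 CPM against 123, and Pcolce, which speeds the removal of the collagen C-propeptide, at 1495 against 212. Bmp1, the protease that removes that propeptide, had a log2 ratio of 2.12, and Lox, which crosslinks collagen, 2.14. The collagen modifying enzymes P3h1, P4ha1, P4ha2, Plod1 and Plod2 had ratios between 1.32 and 2.20, and Creb3l1, a transcription factor that drives collagen secretion, 2.33. Tmem119, a membrane protein of osteoblasts, was the highest of the list at 3.62. The exception was Tmem38b, an ion channel of the endoplasmic reticulum, with 13 UMIs and a ratio of -1.07.

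Genes that control mineral were higher for 6 of 8 tested, with a median log2 ratio of 3.0. Alpl encodes the tissue non-specific alkaline phosphatase, which removes the mineralization inhibitor pyrophosphate. It stood at 610.0 CPM [567 to 656] against 15.3, and per spot at 0 to 12.5 UMIs per 10000 with a median of 5.53. One spot had no Alpl UMI, and 47 of the 60 exceeded the 99th percentile of the others (3.87). Enpp1 and Ank act in the opposite direction, making and exporting pyrophosphate, and were higher too, at 176 CPM against 13.7 (log2 ratio 3.59) and with a log2 ratio of 2.42. Phex, an endopeptidase of phosphate control (89.9 CPM against 2.13), Smpd3, a sphingomyelinase needed for mineralization (364 against 27.2), and Fam20c, the kinase of secreted matrix phosphoproteins (160.0 against 43.3), completed the group. The phosphate transporters Slc20a1 and Slc20a2 did not pass 2-fold, with ratios of 0.06 and 0.45. Phospho1, the phosphatase of matrix vesicles, had 0 UMIs in forming bone, where 3 UMIs would be 2.47 CPM, and 7 UMIs in all other spots. Slc13a5, a citrate transporter, stood at 132 CPM [112 to 154] against 2.55, and Sgms2, a sphingomyelin synthase, at 509 against 11.2.

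Osteocyte genes were mostly at low counts. 5 of 6 tested genes passed 2-fold, with a median log2 ratio of 1.46, but the list holds Phex and the broadly expressed Gja1 and Cd44. Sost, which encodes sclerostin and is the defining product of mature osteocytes, had 15 UMIs in 7 of the 60 spots (12.4 CPM [6.92 to 20.4] against 4.49). Fgf23, the phosphate hormone of osteocytes, had 0. Dkk1, a secreted inhibitor of Wnt signalling, had the largest ratio of the tested genes on the list after Phex, with 51 UMIs in 27 spots (42.0 CPM [31.3 to 55.3] against 0.66).

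Transcription factors of the osteoblast lineage divided. Dlx5, Dlx3 and Runx2 had ratios of 4.38, 4.31 and 4.24, with Runx2 at 92.3 CPM [76.0 to 111] against 3.95. Runx2 UMIs were found in 45 of the 60 spots, with a highest value of 2.80 UMIs per 10000, which the highest of the other spots also reached (2.96). Twist1, a mesenchymal factor that restrains RUNX2, was higher as well (2.48). Sox11 and Msx1, factors of earlier progenitors, were lower, at -1.65 and -1.74, Msx1 with a single UMI. Altogether 7 of 12 tested genes on the list were at least 2-fold higher and 2 lower.

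Osteoclast genes were higher in these spots, although no osteoclast gene was used to choose them. Of 15 tested, 14 passed 2-fold, with a median log2 ratio of 3.68. Acp5 encodes tartrate-resistant acid phosphatase, the classical osteoclast stain, and stood at 2434 CPM [2347 to 2524] against 36.3. Per spot it ran from 0 to 85.3 UMIs per 10000 with a median of 16.3, and 40 of the 60 spots exceeded the 99th percentile of the others (6.30), while 20 did not. Mmp9, a gelatinase of osteoclasts at the cartilage front, stood at 3149 CPM [3050 to 3251] against 43.9, and Ctsk, the protease that digests type I collagen in acid, at 1924 [1847 to 2004] against 60.1. The fusion proteins Ocstamp and Dcstamp, which join precursors into large cells, stood at 58.5 and 39.6 CPM against 0.82 and 0.57. The proton pump subunits Atp6v0d2 and Tcirg1 had ratios of 5.51 and 3.31, the receptor Oscar 4.96, and Nfatc1, the transcription factor that drives osteoclast formation, 2.98. The transporters Slc9b2 (5.05) and Slc37a2 (4.86), outside the list, are also known from osteoclasts. Car2, the carbonic anhydrase that supplies the protons, was the exception, at 25.6 CPM [17.4 to 36.3] against 33.8.

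The wider macrophage list did not follow: 2 of 9 tested genes passed 2-fold upwards and 1, Cd163, downwards, with a median of 0.27. The 2 were Cd68 (122 CPM against 12.6) and Csf1r (157 against 34.0), which osteoclasts also express. The complement genes C1qa, C1qb and C1qc had ratios of 0.04 to 0.34. Cd163, a scavenger receptor of tissue macrophages, had 0 UMIs against 1.90 CPM elsewhere. As 3 UMIs in forming bone would be 2.47 CPM, these counts are too few to show that Cd163 was lower. Of the signals that control osteoclasts, Csf1, a growth factor for the lineage, stood at 77.5 CPM against 18.3. Tnfrsf11b, the decoy receptor osteoprotegerin, stood at 12.4 against 5.39. Tnfsf11, which encodes RANKL, had too few UMIs for the ratio count, with 18 in forming bone and 52 in all other spots, or 14.8 CPM [8.79 to 23.5] against 0.50.

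Genes of enlarging cartilage and of the cartilage to bone border were higher: 4 of 5 tested, with a median log2 ratio of 4.52. Mmp13, the collagenase of late hypertrophic cartilage and young osteoblasts, stood at 1406 CPM [1340.4 to 1474] against 15.9, with 0 to 59.9 UMIs per 10000 per spot and a median of 10.3. Panx3, a channel protein of both cell types, stood at 171 CPM against 2.01, and Pth1r, the receptor for parathyroid hormone and its related peptide, at 913 against 66.3. Col10a1, the defining collagen of hypertrophic cartilage, stood at 126 CPM [107 to 148] against 4.56, but it was found in 28 of the 60 spots and its median was 0. Vegfa, the vessel growth factor made by hypertrophic cartilage, was the tested gene of the list that did not pass, at 54.4 CPM against 68.1, a log2 ratio of -0.32. Other cartilage genes were mixed. Col2a1, the main cartilage collagen, stood at 879 CPM against 685, a ratio of 0.36, and its per-spot median was 4.49 UMIs per 10000 with a highest value of 119. Of 15 cartilage genes 5 passed 2-fold upwards (Acan, Matn1, Comp, Hapln1 and Snorc) and 1 downwards (Ucma), with a median of 0.35. The summed cartilage list had a median of 9.50 UMIs per 10000 in forming bone spots against 4.64 elsewhere, and 53 of the 60 spots were above the latter. Ihh, the hedgehog ligand of prehypertrophic cartilage, had 16 UMIs in forming bone (13.2 CPM [7.54 to 21.4] against 0.68) and was too low for the count.

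In each signalling list a minority of the tested genes was at least 2-fold higher, beside 6.38% of all genes. Of 17 Wnt ligands and receptors, 5 were higher and 1 lower, with the co-receptor Lrp5 at a log2 ratio of 1.61 and the ligand Wnt10b at 2.16 on 9 UMIs. Of 16 Wnt antagonists and targets 5 were higher, all of them secreted inhibitors: Dkk1 (4.70), Notum (2.93), Wif1 (2.85), Frzb (1.38) and Sost (1.28). Sfrp1, another secreted inhibitor, was the single lower gene (-1.17), and the secreted inhibitors Dkk2, Dkk3 and Sfrp2 passed 2-fold in neither direction. The target genes Axin2, Lef1, Tcf7, Nkd1 and Nkd2 had ratios of -0.39 to 0.33. In the BMP and TGF beta list 6 of 23 were higher and 1, the receptor Bmpr1b, lower (-1.01). Tgfb1, a growth factor stored in bone matrix, and Bmp3, an inhibitor of other BMPs made by osteoblasts, both had 3.25, and the targets Id3, Smad6 and Smad7 had 1.95, 1.37 and 1.12. The FGF receptors Fgfr1, Fgfr2 and Fgfr3 were the 3 higher genes of 11 in the FGF list (1.67, 1.86 and 1.01), while Fgf2 and the target Etv4 were lower (-1.09 and -1.21). Fgf9 had 0 UMIs in forming bone, where 3 UMIs would be 2.47 CPM, against 6.67 CPM elsewhere. In the hedgehog list, the receptor Ptch1 and the factors Gli2 and Gli3 were higher (1.14, 1.07 and 1.34) of 8 tested, and the ligand Shh, with a single UMI, was lower. Vdr, the vitamin D receptor, stood at 116 CPM [97.8 to 137] against 1.76, and 33 spots exceeded the 99th percentile of the others. Apart from Pth1r and Vdr, the hormone list, with IGF genes, stayed within 2-fold in its other 8 tested genes, whose ratios ran from -0.55 to 0.56.

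Genes of other tissues were lower in sums over spots. All 9 skeletal muscle genes tested passed 2-fold downwards, as did all 8 nerve genes. All 7 erythroid genes and 7 of 8 epidermis genes did too, beside 21.8% of all genes. Of the 60 forming bone spots, 32 lay above the median of the other spots for the summed nerve list and 27 for muscle. For the epidermis and erythroid lists 22 and 19 did. The lower sums therefore do not show that a typical forming bone spot held less nerve or muscle RNA than a typical other spot. The 15 lowest genes among those above 50 CPM elsewhere are known from the heart (Pln, Nppa, Myl7, Myl2, Tnni3 and Myh6), from airway epithelium (Scgb3a2 and Scgb3a1), from fat (Thrsp, Cidea and Ucp1) and from other tissues (Wfdc18, Apoc1, Elavl2 and Smpx). Wfdc18 had 0 UMIs in forming bone and 55.0 CPM elsewhere, and was at least 22.2-fold lower, with 3 UMIs over the 60 spots as the floor. Muscle and blood RNA was still present: the muscle list summed to 2847 CPM (10717 elsewhere) and the haemoglobin gene Hbb-bs stood at 9242 CPM (26484 elsewhere). No vessel gene of 10 tested passed 2-fold in either direction, with ratios of -0.09 to 0.85. By group, 5 of the 10 vessel genes were higher and 1 lower in group C, where 13.3% of all genes were higher, and 2 were higher in group A, where 7.41% were. No cell cycle gene of 12 passed, with ratios of -0.15 to 0.56. Dspp, the defining gene of odontoblasts, and the enamel genes Amelx, Enam, Odam and Amtn had 0 UMIs in the forming bone spots, while the enamel gene Ambn had 8 in 6 spots.

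Levels declined with distance from the forming bone spots. Spp1 stood at 2373 CPM in the 109 spots 1 grid step away, at 289 in the 112 spots 2 steps away and at 33.5 in the 3060 spots 5 or more steps away. Acp5 stood at 857, 110.2 and 16.7 CPM in the same sets, so both genes were lower at each of these distances. Against the spots 1 step away, 189 of 10047 genes tested (those with at least 30 UMIs over both sets) were at least 2-fold higher in forming bone (1.88%) and 732 at least 2-fold lower (7.29%). Of the osteoclast list 10 of 14 tested were higher, of bone matrix 7 of 13, of mineral handling 5 of 8 and of osteoblast factors 4 of 12. Phex (2.42), Dkk1 (2.40), Bglap2 (2.44) and Spp1 (2.15) had some of the larger log2 ratios across that step among the genes named here, while Col10a1 (0.41) and Lox (0.49) differed little. Muscle genes were lower in forming bone than 1 step away for 9 of 9 and tendon genes for 4 of 5, and nerve genes for 5 of 7. Of the 60 spots ranked 61 to 120 by the score, 45 lay 1 step from a forming bone spot.

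**Figure D2:**
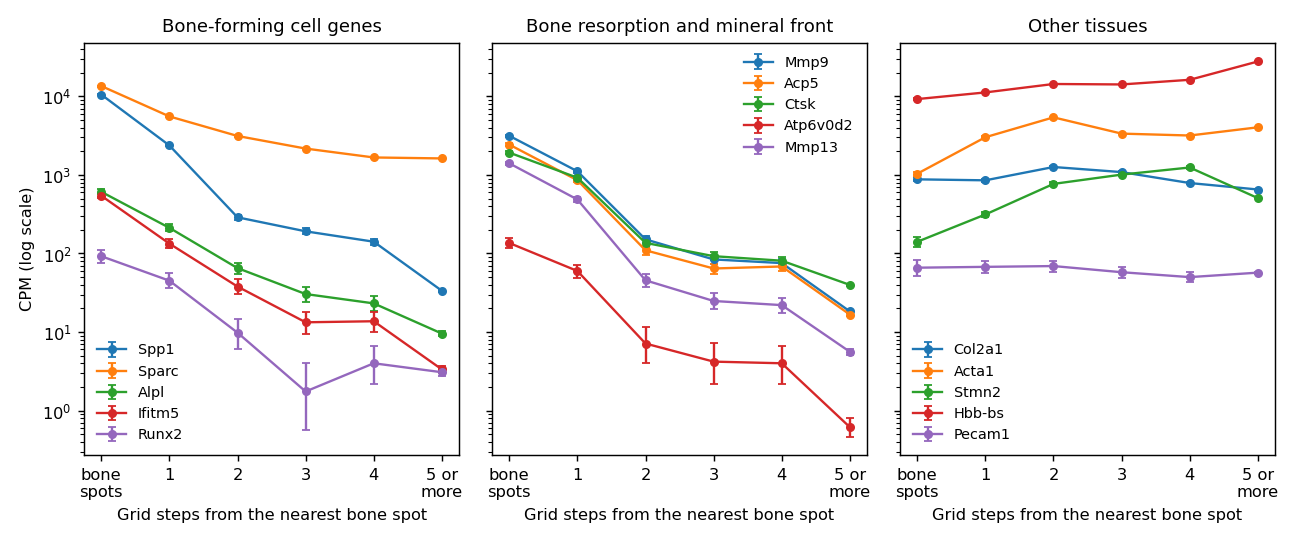
CPM (log scale) with 95% Poisson intervals in the forming bone spots and in kept spots 1, 2, 3, 4 and 5 or more grid steps from the nearest one, for genes of bone formation, resorption and other tissues. Spp1 goes from 10538 CPM to 33.5, while Stmn2, Acta1 and Hbb-bs are higher away from bone and Pecam1 does not exceed 69.2.

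Among the forming bone spots themselves, variance over counting error was largest for Hbb-bs and Ptgds, followed by collagen genes, Spp1 and osteoclast genes. This excess grows with a gene's level, so its order does not rank genes by relative spread. The ratio of the variance to that expected from counting was 146 for Hbb-bs, 138 for Ptgds, 114 for Col1a1, 99.9 for Col1a2, 85.8 for Spp1, 60.7 for Col2a1, 55.3 for Mmp9, 51.1 for Ctsk and 49.5 for Acp5. The summed osteoclast list was 15371 CPM in group B, 10094 in group C, 10011 in group A and 5672 in group D, against 2661 in the smaller groups. Per spot it ran from 3.64 to 290 UMIs per 10000, a span far wider than that of mineral handling (6.01 to 29.9). In groups A, B and C each 14 of the 15 tested osteoclast genes were at least 2-fold above the other kept spots, and in group D 12 were. Mineral handling showed 6 of 8 in every one of these groups. Among groups A to D the cartilage list was highest in group B, at 3545 CPM, and lowest in group A, at 658. Of group B's 10 spots, 2 held 205 and 96.0 UMIs per 10000 of the list, and the group's median was 13.3 against 6.46 in group A. The lone spots at row 62 and column 22 and at row 24 and column 116 stood higher than group B, at 10004 and 8222 CPM. Col10a1 stood at 311 CPM in the smaller groups and at 37.9 to 74.4 in groups A to D. The first of these lone spots, past the end of group A, held the highest Col10a1, 31.8 UMIs per 10000, with Col2a1 at 38.3.

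**Figure D3:**
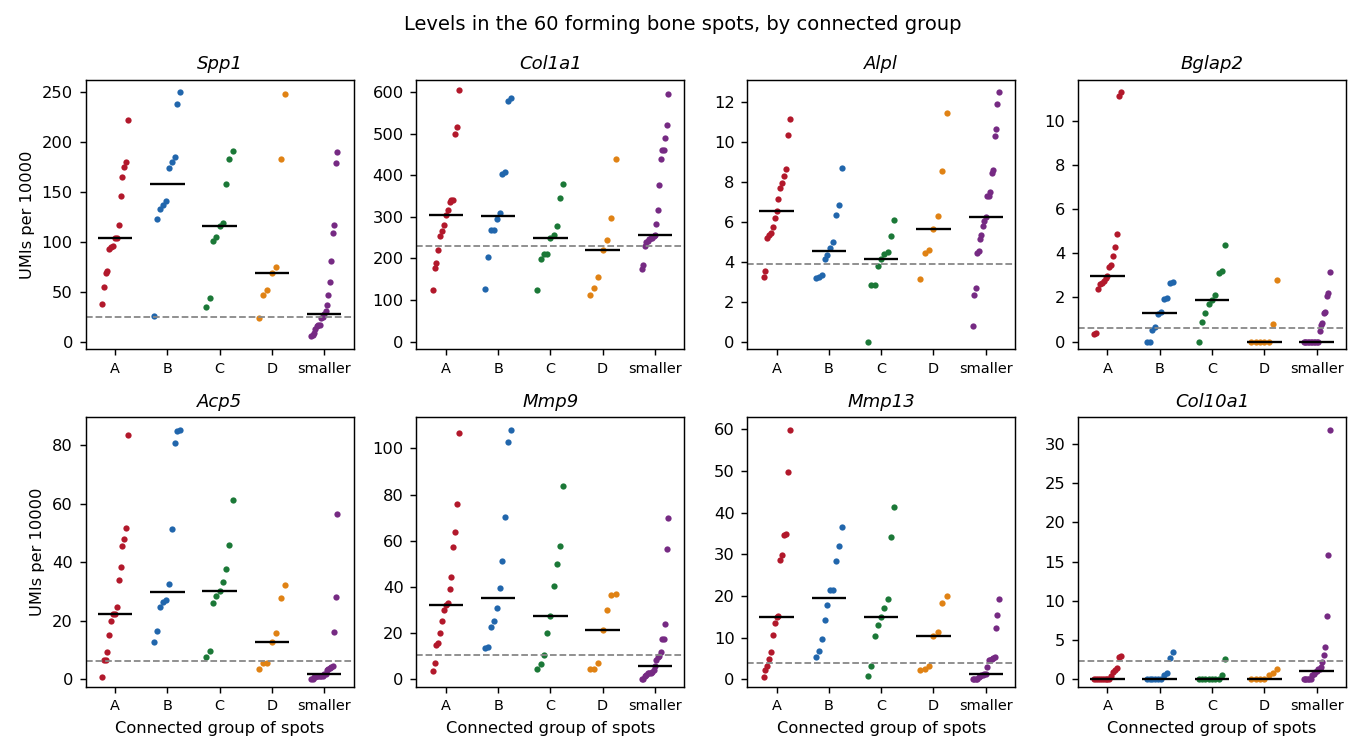
UMIs per 10000 in each of the 60 forming bone spots, by connected group, for 8 genes. Bars mark the group median and the dashed line the 99th percentile of the other 3528 kept spots. Acp5, Mmp9 and Mmp13 are lowest in the smaller groups, where Col1a1 and Alpl are not, and Bglap2 is highest in group A.

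Spots high in osteoclast genes tended to be low in collagen. Across the 60 spots, log levels of the osteoclast and collagen lists had a Pearson correlation of -0.46, given as a description since neighbouring spots share tissue and both lists are shares of the same total. Acp5 and Ctsk correlated at 0.91, Mmp9 and Acp5 at 0.85, and Mmp13, which is not an osteoclast gene, at 0.85 with Mmp9 and -0.27 with Col1a1. Spp1 correlated with Mmp13 at 0.76, with Acp5 at 0.62 and with Col1a1 at -0.02. The osteoclast list correlated at 0.12 with the log of UMIs in the spot. The 30 spots with the highest scores held less of the osteoclast list, 6736 CPM, than the next 30, 10371 CPM, and more of the collagen list, 82283 against 55101 CPM. The genes most correlated with the score inside the 60 spots were Kazald1 (0.61), Col1a2 (0.59), Col1a1 (0.58), Sparc (0.56) and Col22a1 (0.56), followed by Fkbp10, Serpinh1, Ramp1, Hrc and 0610010K14Rik (0.50 to 0.47). The score chose these spots and shares each spot's total with these levels. The comparison of the highest 30 spots with the next 30 and the correlations with the score are therefore a description only.

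**Figure D4:**
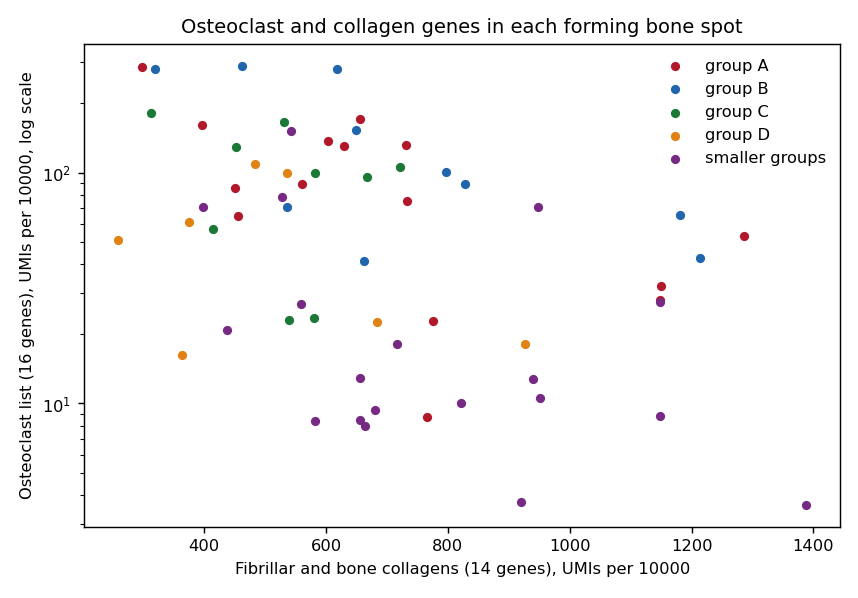
Summed UMIs per 10000 of the fibrillar and bone collagen list (x axis, linear) and of the osteoclast list (y axis, log scale) in each of the 60 forming bone spots, coloured by connected group. The correlation of log levels was -0.46, and the osteoclast list has a median of 12.8 in the smaller groups against 51.0 to 99.6 in groups A to D. Single spots of the smaller groups run from 3.64 to 152.

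Forming bone was set beside the tissues most like it in the same section, namely the 60 spots highest for the cartilage genes Col2a1, Acan, Matn1 and Cnmd and the 60 highest for the connective tissue genes Dcn, Lum, Col3a1 and Pdgfra. Neither set shared a spot with forming bone, and both comparisons use the same 60 forming bone spots as those above. Against cartilage, 585 of 7552 genes were at least 2-fold higher in forming bone (7.75%) and 534 lower (7.07%). The osteoclast list was higher for 13 of 14 tested, mineral handling for 6 of 8 and osteoblast factors for 6 of 11. Vessel genes were higher for 6 of 10. Of 13 bone matrix genes 5 were higher and 2 lower, with a median of 0.73, and of 20 collagen folding genes 4 were higher and 2 lower, with a median of -0.11. Of 14 collagens 5 were higher and 4 lower, and Sparc was at 12906 CPM in cartilage and 13549 in bone. The cartilage spots were shallow, with a median of 7243.5 UMIs, which limits the genes that could be compared. Against connective tissue, 594 of 9519 were higher (6.24%) and 639 lower (6.71%), with the osteoclast list higher for 14 of 14 and mineral handling for 7 of 8. Car2, the osteoclast gene not higher against all other kept spots, had a log2 ratio of 1.48 over connective tissue and 0.96 over cartilage. Periosteum and mesenchyme genes were shared with connective tissue, with 1 of 9 higher and 1 lower, while against all other kept spots 6 of 10 were higher. Of 6 nerve genes 4 were higher in forming bone than in connective tissue and 0 lower. None of the muscle, erythroid or epidermis genes was higher in that comparison, and 2 of 9, 2 of 5 and 8 of 8 were lower. Serpinh1 stood at 3389 CPM in cartilage, 1968 in connective tissue and 3219 in bone.

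The same score applied to the E13.5 section gave 60 spots with lower scores, from 1.85 down to 0.352, against 2.67 to 1.47 at E16.5. Their median depth was 25938.5 UMIs. Each stage has 1 section, so stage, section and position in the body cannot be told apart. The E13.5 spots carried factors of the head skeleton, with Lhx8 at 83.4 CPM, Alx1 at 41.0 and Pax3 at 41.0, against 1 UMI, 0 and 0 in E16.5 forming bone, and 9 of 9 tested head factors were lower at E16.5. Within the E16.5 section, 2 of 10 head factors were higher in forming bone than in the other kept spots and 5 lower, beside 6.38% and 21.8% of all genes. Group D had 3 higher and 4 lower, where 12.8% of all genes were higher, and the smaller groups had 2 and 4. Groups A, B and C had 1, 1 and 0 higher and 6, 8 and 9 lower. Against the E13.5 spots, 831 of 9483 genes were at least 2-fold higher in E16.5 forming bone (8.76%) and 1306 lower (13.8%).

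Osteoblast factors were already present at E13.5. Runx2 stood at 120.4 CPM [104 to 139] there and 92.3 [76.0 to 111] at E16.5, and Dlx5 at 75.4 and 64.3, both within 2-fold. Of 13 factors tested 1 was higher at E16.5 and 3 lower, among them Msx1 with 212 CPM at E13.5 and 0.82 at E16.5. Alpl stood at 335 CPM [307 to 366] and 610.0, and Panx3 at 85.4 and 171, with log2 ratios of 0.86 and 0.99, short of 2-fold. Matrix and resorption genes were much higher at E16.5: 9 of 13 bone matrix genes, 9 of 14 collagens and 13 of 14 osteoclast genes passed 2-fold. Col1a1 stood at 2722 CPM and 31126, Spp1 at 43.0 [33.2 to 54.8] and 10538, and Acp5 at 58.2 [46.7 to 71.7] and 2434. Mmp13 had 1 UMI at E13.5 against 1705 at E16.5, and Col10a1 and Bglap2 had 0 against 153 and 226. Of the cell cycle list, 6 of 12 were at least 2-fold lower at E16.5, with Top2a at 157 CPM and 61.8. Skeletal muscle genes were higher at E16.5 for 7 of 9, and macrophage genes for 5 of 7, and their part in the stage differences was not tested.

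**Figure D5:**
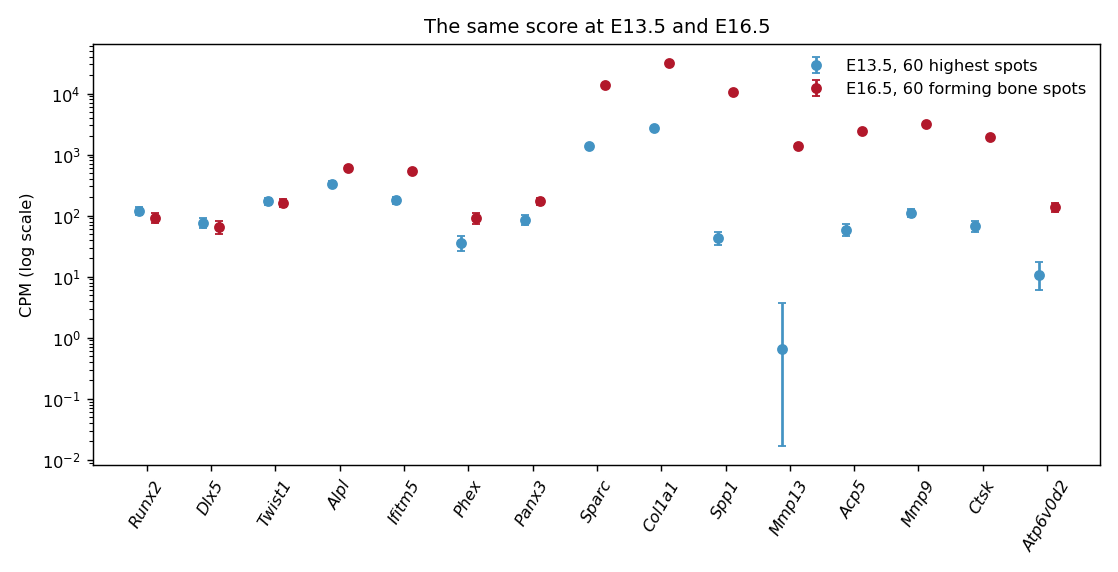
CPM (log scale) with 95% Poisson intervals for 15 genes in the 60 highest spots by the same score at E13.5 and in the 60 forming bone spots at E16.5. Runx2, Dlx5 and Twist1 lie close together at both stages, whereas Spp1, Mmp13 and the osteoclast genes are far higher at E16.5.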

How the data were processed

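The deposited files hold UMI counts per gene and spot for 32285 genes in 4 sections, made by the authors with Space Ranger 2.0.0 per the file headers, against mm10 per the submitters' processing notes. The values are whole numbers and were not normalized. A minimum of 500 UMIs was set for spots over tissue, passed by 3588 of 3593 at E16.5. Doublets do not apply to spots. Counts were summed over sets of spots and expressed per 1000000 UMIs (CPM) with exact Poisson 95% intervals, which cover counting error only. Ratios are log2((CPM + 1)/(CPM + 1)), taken for genes with at least 100 UMIs over both sets (30 for comparisons between smaller sets). With 1 section per embryonic stage no test was made.

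The 4 score genes were left out of the counts, together with genes that chose a comparison set. Named genes were the 25 with the largest ratio (at least 30 UMIs in forming bone and a UMI in at least 20 spots). Also named were the 15 with the smallest ratio (at least 50 CPM elsewhere) and the members of 29 gene lists. The 15 genes with the largest variance over counting error and the 10 most correlated with the score completed the names. The lists hold 328 genes, of which 326 are in the files. Spots, lists and rules were chosen with earlier results of these data known. Gh, Pomc, Pmf1, Sparcl1 and Pkd2 were chosen after their values were seen or for their position. Positions and promoters are from RefSeq tables of GRCm38.p6, joined by symbol. Computation used Python 3.11.15, numpy 2.4.6, scipy 1.17.1, pandas 2.3.3 and edgeR 4.0.16 (TMM factors only). The code for the ratio counts was run on simulated data. Those data held counting error alone, without the wider spread among real spots, so they do not test the counts reported here. The 21 alternatives changed the number of spots, the score, the minimum counts, the scaling, the pseudocount and the comparison spots, or left out a connected group. Tissue images were not used here. 1 gene of the lists is not reported here by name.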

Additional observations from a re-analysis of the deposited data

How the results depend on the processing

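No paired analysis was possible because the E16.5 section is a single sample. Of 21 alternatives, 14 were listed at the outset and 7 were added after seeing the data (comparison spots 1 to 3 steps away, without group B, C or D, each side alone, and at least 2500 UMIs per gene). Of the counts of genes and of list members that the comparison turns on, 175 stayed within 1.5 times the main value and 14 moved. Over the other list counts 418 stayed and 44 moved, over list medians 475 stayed and 110 moved, and over log2 ratios of named genes 480 stayed within the counting interval, 359 moved beyond it and 1 reversed. With the high-column side alone (15 spots), 15387 genes were tested, and 1605 (10.4%) were higher and 5099 (33.1%) lower. With at least 2500 UMIs per gene, 6473 genes were tested, and 344 (5.31%) were higher and 1132 (17.5%) lower. Higher there were 3 of 7 osteoblast factors, 5 of 7 bone matrix, 3 of 5 mineral handling, 4 of 5 osteoclast and 2 of 3 hypertrophic cartilage genes. Fewer genes were tested there. With the spots 1 to 3 steps away as comparison, 9656 genes were tested, and 330 (3.42%) were higher and 1391 (14.4%) lower. Of the lists, 4 of 10 osteoblast factors, 7 of 12 bone matrix and 9 of 12 osteoclast genes were higher. Scgb3a1 turned from -3.84 to a log2 ratio of 0.043 in that setting. The 25 named higher genes passed 2-fold in every setting, with ratios of 1.75 to 8.10, while 8 of the 15 lower genes did, with ratios of -9.11 to 0.04. The cause of these moves was not tested otherwise. TMM factors moved the median over all genes from -0.19 to -0.13. Of the 60 spots, 48 were also chosen by the summed score, and 51, 56, 54 and 52 without Ibsp, Sp7, Bglap or Dmp1. Depth limits genes near 100 UMIs, for which 1.15 UMIs are expected in the 60 spots against 28.7 at 2500 UMIs, so some of the 983 and 3353 genes can pass 2-fold by counting error.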

Other observations

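Hox genes of the trunk were low in the sum over the forming bone spots, and lower on the low-column side than on the high-column side. Hox numbers follow the order of the genes in their clusters, and expression from the head end to the tail end broadly follows that order. Of 14 tested Hox genes with numbers 5 to 9, 12 were at least 2-fold lower than in the other kept spots and 0 higher, with a median log2 ratio of -2.19 (beside 21.8% lower and 6.38% higher over all genes). Of 10 tested with numbers 1 to 4, 2 were higher and 3 lower. The higher genes were Hoxa2, at 19.8 CPM [12.7 to 29.4] against 7.70, and Hoxb2, at 44.5 CPM [33.4 to 58.1] against 21.0. Of the 24 Hoxa2 UMIs 20 came from group A, whereas Hoxb2 was spread over groups A (13), B (14), C (4), D (1) and the smaller groups (22). The numbers 5 to 9 summed to 39 UMIs (38.0 CPM) on the low-column side and to 44 UMIs (234 CPM) on the high-column side, against 312 CPM in the other kept spots. Numbers 10 to 13 had 0 UMIs in forming bone and 126 elsewhere. Counts are small for each gene.

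RNA known from other organs was uneven over the groups. Gh, which encodes pituitary growth hormone, had 127 UMIs in the forming bone spots, of which 69 were in group D (436 CPM), and its highest spot, at row 69 and column 25 near group D, held 22.9 UMIs per 10000. Pomc, another pituitary hormone gene, had 13 of its 27 UMIs in group D. Ptgds, a prostaglandin synthase of the membranes around the brain, stood at 1926 CPM in group A and 1134 in group B, and a single spot of group A held 137 UMIs per 10000 while the next highest spot held 29.3. Sftpc, the lung surfactant gene, stood at 1091 CPM on the high-column side (205 UMIs) and at 32.2 on the low-column side (33 UMIs). The nerve list stood at 876 CPM in group C and at 75.9 in group D.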
